A study of Mus musculus with 4 samples.

Results

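The transcription factors that specify and maintain the pancreatic beta cell were examined in a mouse beta cell line depleted of NF45. They were 9 genes given by name, Pdx1, Mafa, Neurod1, Nkx6-1, Nkx2-2, Isl1, Pax6, Rfx6 and Foxa2, each read from its brightest probe set annotated to that gene alone, and they make up 9 of 11742 genes tested. The rule that picks them uses names and signal level and no difference between groups, though the list was drawn up with earlier results of these data known. All 9 had 1 such probe set, and all 9 passed the filter on low signal, which asked for a mean over the 4 arrays of 1.65 or more on the log2 scale.

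Expression had been measured in 4 samples of Beta-TC-6 cells with GeneChip Mouse Gene 2.1 ST arrays, each sample on its own array. In 2 samples (siNF45) the cells had received a pool of 3 RNA interference duplexes against NF45, and in the other 2 (siNTC) a negative control siRNA, in each case with a lipid transfection reagent and in medium with 25 mM glucose. Beta-TC-6 is an established insulinoma line from mice that carry a viral T antigen transgene driven by an insulin promoter, and both groups share that origin, so the line is a tumour model of the beta cell. The labels give neither the time after transfection nor whether samples were transfected independently. The p-values therefore cover the variation among these arrays alone, and that variation may be technical.

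Of the markers of a beta cell, 8 of 8 with a probe set of their own passed the filter, with mean levels from 3.59 to 10.12. Their median difference, siNF45 minus siNTC, was -0.11, and none had a limma adjusted p under 0.05. At an unadjusted limma p under 0.05, 2 were lower and 0 higher, where 13.2% of all tested genes were lower and 4.02% higher. The 2 were Kcnj11 at -1.02 and Pcsk1 at -0.44 (limma adjusted p = 0.134 and 0.180). The alpha cell hormone gene Gcg and the delta cell hormone gene Sst were also read well above the filter. Gcg read 7.61 and 7.53 on the siNF45 arrays, against 7.75 and 7.43 on the siNTC arrays. Sst read 8.18 and 8.07 on the siNF45 arrays, against 9.19 and 8.83 on the siNTC arrays. The other markers of these cells were dim. The alpha markers Irx1 and Irx2 had means of 1.39 and 2.53 in siNF45, against 1.94 and 2.92 in siNTC. Both were lower at an unadjusted limma p under 0.05, but Irx1 passed the filter only through its siNTC arrays. The other delta marker, Hhex, did not pass. Of 24 markers of cells outside the islet 7 passed, none of them among the 3 exocrine or 4 endothelial ones. They were the duct marker Krt7, the immune marker Cd68, the mesenchymal markers Col1a2 and Vim, and the neuronal markers Snap25, Stmn2 and Rbfox3, of which Snap25 is also a beta cell exocytosis protein. Krt7 read 3.91 and 3.96 on the siNF45 arrays, against 3.41 and 3.13 on the siNTC arrays, a difference of 0.67 (limma adjusted p = 0.132), and its part in the results below was not tested. The 6 others had limma adjusted p from 0.488 to 0.781. Ilf2, which encodes NF45, read 3.67 and 3.77 on the siNF45 arrays, against 5.79 and 5.98 on the siNTC arrays. It fell by 2.17 on the log2 scale, with a limma adjusted p of 0.0200, and was 1 of 10 genes called at an adjusted p under 0.05, or 0.0852% of those tested. No gene was called when any 1 array was left out, although Ilf2 then still differed by -2.26 to -2.07 with 1 array fewer in the fit. The array medians over the tested genes were 3.72 and 3.60 in siNF45 and 3.82 and 3.76 in siNTC.

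Beta cell identity rests on a small network of transcription factors that bind the insulin gene and one another's control regions. Pdx1, Nkx6-1, Nkx2-2, Isl1 and Pax6 carry a homeodomain, a DNA-binding fold that commonly recognises a TAAT core, while Mafa is a basic leucine zipper protein, Neurod1 a basic helix-loop-helix protein, Foxa2 a forkhead protein and Rfx6 a winged-helix protein of the RFX family. In the mouse, loss of single members during development or in adult beta cells reduces insulin production or turns cells towards other islet fates. NF45 is a partner of the double-stranded RNA-binding protein NF90, and together they act on RNA processing and stability.

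The sequences upstream of 4 of these genes are shown because Rfx6, Pax6 and Isl1 were the 3 members whose siNF45 arrays both lay above both siNTC arrays, and Foxa2 the 1 member whose siNF45 arrays both lay below. Each run is the 250 bases before a transcription start site in RefSeq (GRCm38.p6), 5′ to 3′ on the strand of the gene, with the homeodomain core TAAT, or ATTA for the other strand, in capitals. The Rfx6 window was chr10:51685268-51685517 on the plus strand, upstream of a start site that lies inside the annotated span of the gene. The Pax6 window was chr2:105668646-105668895 on the plus strand and belongs to the outer one of 2 start sites. The Isl1 window was chr13:116309689-116309938 on the minus strand. The Foxa2 window was chr2:148046970-148047219 on the minus strand and belongs to the outermost of 3 start sites.
Rfx6: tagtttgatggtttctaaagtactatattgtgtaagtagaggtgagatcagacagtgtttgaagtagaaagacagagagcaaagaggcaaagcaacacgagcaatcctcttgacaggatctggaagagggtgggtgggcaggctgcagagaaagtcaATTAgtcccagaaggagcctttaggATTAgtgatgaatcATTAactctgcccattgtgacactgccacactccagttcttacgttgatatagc
Pax6: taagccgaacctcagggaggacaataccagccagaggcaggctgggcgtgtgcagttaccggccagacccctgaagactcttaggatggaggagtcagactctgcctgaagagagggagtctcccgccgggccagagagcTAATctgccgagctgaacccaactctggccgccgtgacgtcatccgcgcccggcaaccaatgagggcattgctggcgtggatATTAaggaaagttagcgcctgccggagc
Isl1: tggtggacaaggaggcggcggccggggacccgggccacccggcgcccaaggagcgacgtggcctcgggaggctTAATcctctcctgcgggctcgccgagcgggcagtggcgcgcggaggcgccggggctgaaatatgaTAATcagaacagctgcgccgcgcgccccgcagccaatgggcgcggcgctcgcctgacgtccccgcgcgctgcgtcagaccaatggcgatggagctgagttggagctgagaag
Foxa2: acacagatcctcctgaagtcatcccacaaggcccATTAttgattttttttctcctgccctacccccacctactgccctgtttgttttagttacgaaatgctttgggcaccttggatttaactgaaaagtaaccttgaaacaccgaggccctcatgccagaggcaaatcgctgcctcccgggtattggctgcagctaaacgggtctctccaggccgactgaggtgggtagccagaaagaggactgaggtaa

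The printed Rfx6 window held 3 homeodomain cores, the printed Pax6 and Isl1 windows 2 each and the printed Foxa2 window 1. The window of the second Foxa2 start held 0 and that of the third held 2, so the Foxa2 count depends on the start site. The window of the second Pax6 start held 2. Over all members the RefSeq table had 11 start sites for 8 of the 9 genes, with no entry for Mafa, and 7 of the 11 windows held the core, against 54.9% of 32851 such windows of the mouse table. The windows of Pdx1, Nkx6-1 and Neurod1 held none. The E-box CAGATG, of the kind bound by Neurod1 dimers, occurred in the Nkx2-2 window and in 14.4% of all windows. The Maf half-site TGCTGA occurred 2 times in the Neurod1 window and once each in those of Nkx6-1 and the second Foxa2 start, against 16.1% of all windows. The RFX half-site GTTGCC occurred in the printed Pax6 window, against 10.4% of all windows, and the forkhead motif TGTTTAC in no window of a member, against 3.17% of all windows. Both strands were searched. None of these motifs holds another of them, and a match is a run of letters, not a measured binding site.

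No member passed the limma test over all genes. At an unadjusted limma p under 0.05 there were 2 of 9, Rfx6, which was higher in siNF45, and Foxa2, which was lower, where 17.2% of all tested genes reached that level (4.02% higher and 13.2% lower). Without moderation of the spread across genes, 0 of the 9 reached it. The groups did not overlap for 3 members on the higher side and 1 on the lower side, where 15.2% of all tested genes lay wholly higher and 32.6% wholly lower. The median difference of the 9 was -0.02, and that of all tested genes -0.07. The count of 2 became 0 without siNF45 replicate 1 and 0 without siNF45 replicate 2, and it stayed at 2 without either siNTC array, as Rfx6 and Pax6 without siNTC replicate 1 and as Rfx6 and Foxa2 without siNTC replicate 2.

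**Figure D1:**
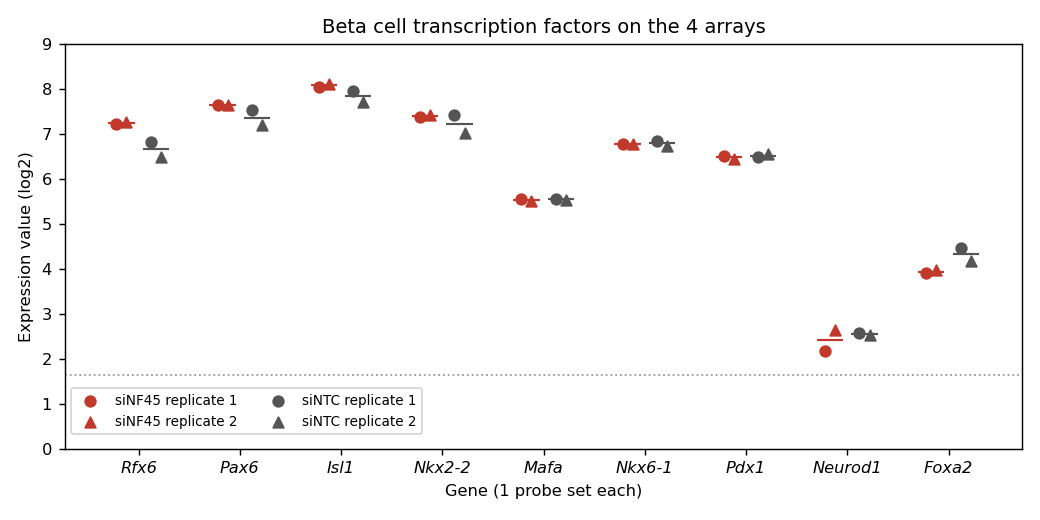
Expression value (log2) of the 9 factors on each array, with siNF45 in red left of siNTC in grey, circles for replicate 1, triangles for replicate 2, short lines for group means and a dotted line at the signal filter of 1.65. The siNF45 points of Rfx6, 7.23 and 7.27, lie above its siNTC points, 6.82 and 6.49, while those of Pdx1, Mafa and Nkx6-1 overlap their controls. Heights of different genes come from different probe sets and are not comparable.

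Pdx1, Mafa and Neurod1 are the factors that bind the insulin promoter together. Pdx1, which is also needed for the pancreas to form, read 6.51 and 6.44 on the siNF45 arrays, against 6.49 and 6.55 on the siNTC arrays. The siNF45 and siNTC values overlapped. The difference was -0.05 (95% interval -0.34 to 0.25, limma adjusted p = 0.888), an interval that spans ratios of siNF45 to siNTC from 0.791 to 1.19.

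Mafa, a late factor that marks mature beta cells and drives insulin gene activity in response to glucose, read 5.56 and 5.50 in siNF45 and 5.56 and 5.53 in siNTC. One array of each group had the same value. Its difference was -0.02 (95% interval -0.30 to 0.27, limma adjusted p = 0.967), and the ratios inside that interval run from 0.810 to 1.21. The direction of both Pdx1 and Mafa turned when each array was centred on the median of its tested genes, a step that adds 0.13 to every difference and gave 0.09 for Pdx1 and 0.12 for Mafa.

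Neurod1, which binds the E-box of the insulin promoter with a ubiquitous partner, read 2.18 and 2.63 in siNF45 and 2.57 and 2.54 in siNTC on the probe set annotated to it alone. The siNF45 values lay on both sides of the siNTC values, and the gap between the siNF45 arrays, 0.45, was the widest replicate gap of any member. The difference was -0.15 (95% interval -0.59 to 0.29, limma adjusted p = 0.717). It was 0.08 without siNF45 replicate 1 and -0.38 without siNF45 replicate 2. A second probe set carries the symbols of both Neurod1 and its neighbour Cerkl and so stands for neither gene by the rule used here. It read 7.80 and 7.87 on the siNF45 arrays, against 8.04 and 7.77 on the siNTC arrays, a difference of -0.07 with overlapping groups. What each of these genes contributes to that signal was not tested.

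Nkx6-1 and Nkx2-2 are homeodomain proteins that act largely as repressors and keep the programmes of other islet cells silent in beta cells. Nkx6-1 read 6.78 and 6.77 in siNF45, inside the siNTC values of 6.85 and 6.73. Its difference was -0.02 (95% interval -0.31 to 0.28, limma adjusted p = 0.967), and centring the arrays turned it to 0.12. Nkx2-2 read 7.38 and 7.42 in siNF45 and 7.43 and 7.02 in siNTC. The siNF45 values thus fell just under siNTC replicate 1 and well above siNTC replicate 2. The difference was 0.18 (95% interval -0.24 to 0.59, limma adjusted p = 0.647), which was 0.38 without siNTC replicate 1 and -0.03 without siNTC replicate 2. A dim probe set shared by Nkx2-2 and its antisense transcript Nkx2-2os read 1.25 and 1.38 in siNF45 and 1.52 and 1.45 in siNTC, all under the filter.

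**Figure D2:**
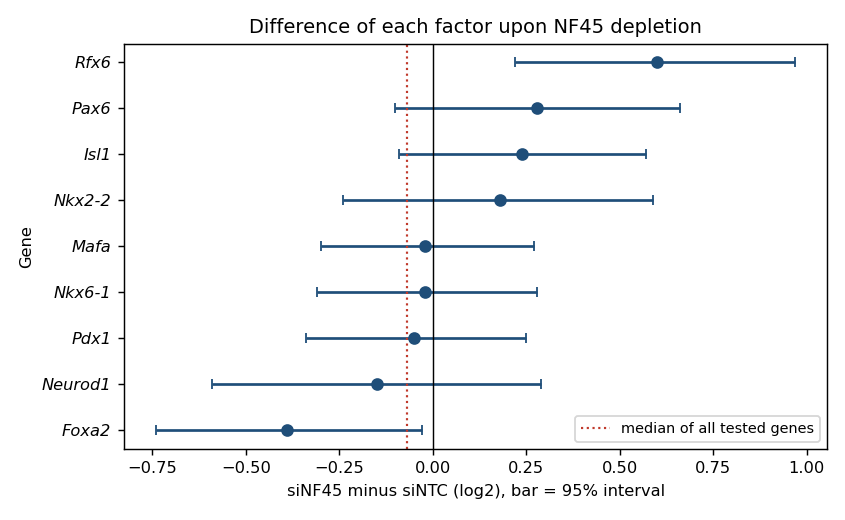
Difference of each factor (log2, siNF45 minus siNTC), with bars for the 95% interval of the limma fit, a solid line at 0 and a dotted line at the median of all tested genes, -0.07. The intervals of Rfx6, 0.22 to 0.97, and Foxa2, -0.74 to -0.03, leave out 0 before adjustment, and the other 7 include it.

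Isl1 and Pax6 are shared by the endocrine cell types of the islet. Isl1, a LIM homeodomain protein that acts with the cofactor Ldb1, read 8.05 and 8.10 in siNF45, against 7.95 and 7.72 in siNTC. Both siNF45 arrays lay above both siNTC arrays, by 0.10 at the nearest. The difference was 0.24 (95% interval -0.09 to 0.57, limma adjusted p = 0.423), which was 0.36 without siNTC replicate 1 and 0.13 without siNTC replicate 2.

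Pax6, which has a paired domain besides its homeodomain and activates islet hormone genes, read 7.64 on both siNF45 arrays, against 7.53 and 7.19 in siNTC. It too was higher on both siNF45 arrays than on either siNTC array. The difference was 0.28 (95% interval -0.10 to 0.66, limma adjusted p = 0.414). Its size depended on the control array, at 0.45 without siNTC replicate 1 and 0.11 without siNTC replicate 2. A probe set shared by Pax6 and the neighbouring Elp4 read 4.86 and 4.68 in siNF45 and 4.91 and 4.41 in siNTC, a difference of 0.11 with overlapping groups.

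Rfx6, which directs islet cell formation in the mouse embryo and in adult beta cells maintains genes of insulin secretion, had the smallest p of the 9 and ranked 650 of 11742 by p. It read 7.23 and 7.27 on the siNF45 arrays, against 6.82 and 6.49 on the siNTC arrays, or 7.25 ± 0.03 and 6.66 ± 0.23 (SD, n = 2 each). The lowest siNF45 value exceeded the highest siNTC value by 0.41, which is more than the 0.33 between the siNTC arrays. The difference was 0.60 (SE 0.15, 95% interval 0.22 to 0.97), a 1.51-fold higher level, with an unadjusted limma p of 0.00858 and a limma adjusted p of 0.155. The difference kept its direction under each of the 13 alternatives run, from 0.43 to 0.76, and its limma adjusted p ran from 0.0624 to 0.491, never under 0.05. Without siNTC replicate 2 the difference was 0.43 and without siNTC replicate 1 it was 0.76.

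Foxa2, a forkhead protein that opens chromatin in foregut derivatives and is needed for Pdx1 expression in mice, was the member with the lowest difference. It read 3.91 and 3.97 on the siNF45 arrays, against 4.47 and 4.18 on the siNTC arrays, or 3.94 ± 0.04 and 4.33 ± 0.21 (SD, n = 2 each). Both siNF45 arrays lay below both siNTC arrays, and the nearest values were 0.21 apart. The difference was -0.39 (SE 0.14, 95% interval -0.74 to -0.03), with an unadjusted limma p of 0.0394 and a limma adjusted p of 0.264, and it ranked 1752 of 11742 by p. Under the 13 alternatives it ran from -0.53 to -0.24. Its unadjusted p was under 0.05 in 6 of the 13, and not after quantile normalization or centring (where the difference was -0.26), with the replicate block, without moderation, or with siNF45 replicate 1, siNF45 replicate 2 or siNTC replicate 1 left out. The difference was -0.53 without siNTC replicate 2 and -0.24 without siNTC replicate 1.

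**Figure D3:**
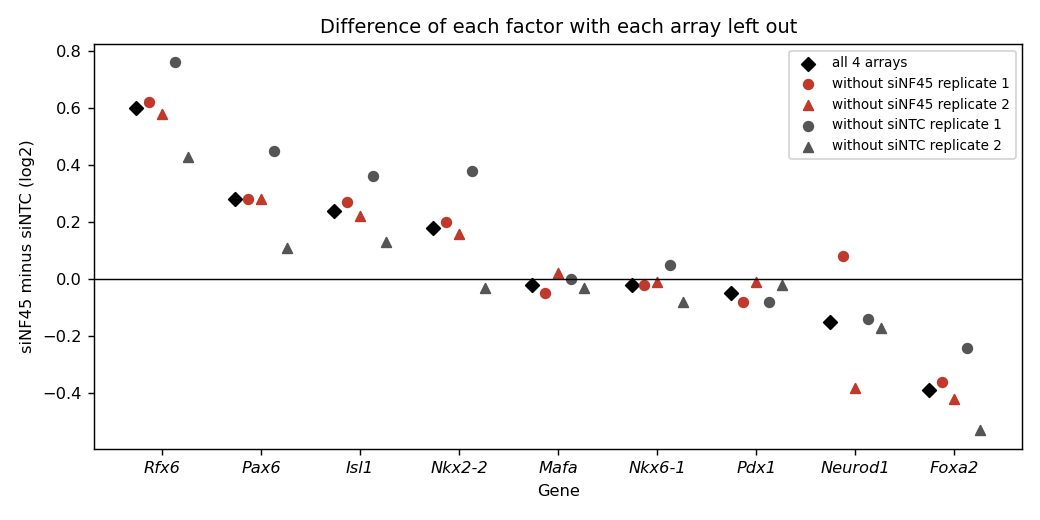
Difference of each factor (siNF45 minus siNTC, log2) over all 4 arrays (diamond) and with each array left out, red for a siNF45 array and grey for a siNTC array, circles for replicate 1 and triangles for replicate 2. Rfx6 stays between 0.43 and 0.76 and Foxa2 between -0.53 and -0.24, whereas Nkx2-2 ends at -0.03 without siNTC replicate 2 and Neurod1 at 0.08 without siNF45 replicate 1.

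The siNTC arrays lay further apart than the siNF45 arrays in 6 of the 9 genes. No share over all tested genes is given for this count, so it is not read as particular to the factors. Within siNF45, replicate 1 minus replicate 2 had a median of -0.04 over the 9 genes and was above 0 for 3, below 0 for 5 and at 0 for Pax6. Over all tested genes that gap had a median of 0.06 and was above 0 for 59.7%. Within siNTC the same gap had a median of 0.23 and was above 0 for 8 of the 9, the exception being Pdx1 at -0.06, against a median of 0.05 over all tested genes, of which 58.7% were above 0. Nkx2-2 had the widest siNTC gap, 0.41, followed by Pax6 at 0.34, Rfx6 at 0.33, Foxa2 at 0.29 and Isl1 at 0.23. The differences of Nkx2-2, Isl1, Pax6 and Rfx6 given above are therefore each larger against siNTC replicate 2 than against siNTC replicate 1, and that of Foxa2 is smaller. The part of this gap in the group differences was not tested.

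**Figure D4:**
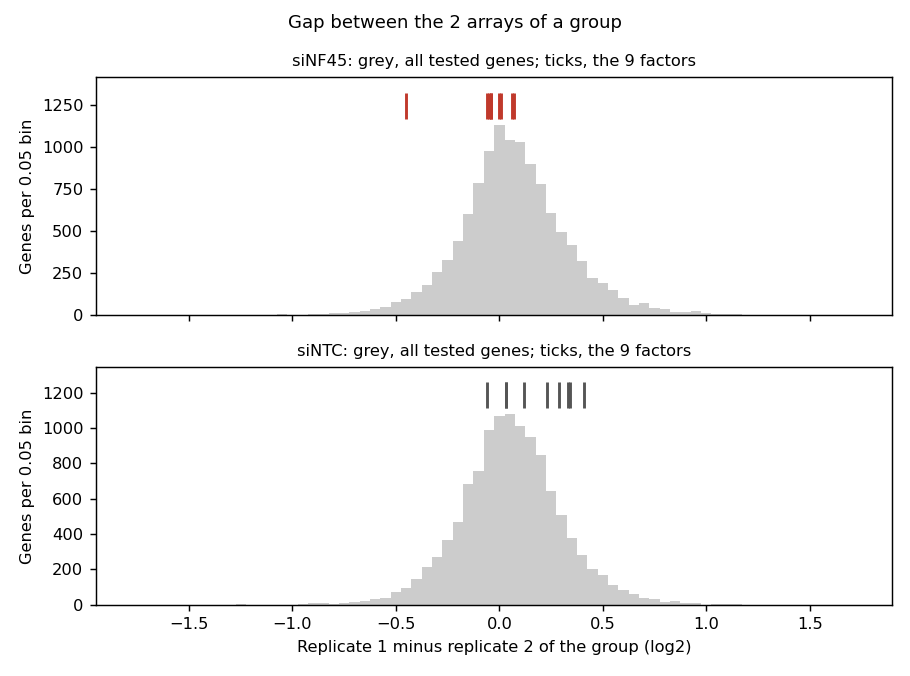
Gap between the arrays of a group, replicate 1 minus replicate 2 on the log2 scale, for siNF45 (top) and siNTC (bottom), with grey bars for the number of all 11742 tested genes per bin and ticks for the 9 factors. The siNTC ticks run from -0.06 to 0.41 and the siNF45 ticks from -0.45 to 0.07.

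The pattern of Rfx6 over the 4 arrays was shared most closely by Farp1, Rpia and Nol4. After each gene was centred on its own mean, their root mean square distances from Rfx6 were 0.029, 0.029 and 0.032 on the log2 scale. Farp1 read 6.08 and 6.09 in siNF45 and 5.68 and 5.39 in siNTC, so it too had both siNF45 arrays above both siNTC arrays. Over 4 arrays such closeness is a description only.

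Among close relatives of the 9 in the same protein families, 17 of 37 with a probe set of their own passed the filter, and the 20 others had mean levels from 1.14 to 1.63. None was called by limma over all genes. Unadjusted limma p-values under 0.05 were found for 0 genes higher and 4 lower, where 4.02% of all tested genes were higher and 13.2% lower, and the median difference was -0.17. The 4 were the small Maf proteins Mafg and Maff, which lack an activation domain, the large Maf protein Maf, and Pax4. Pax4 is a transcriptional repressor that acts in early beta cell development. Mafg read 3.07 and 3.08 in siNF45, against 3.47 and 3.53 in siNTC, a difference of -0.43 (limma adjusted p = 0.175). Maf read 5.69 on both siNF45 arrays, against 6.17 and 6.06 in siNTC, also -0.43 (limma adjusted p = 0.182), which was -0.28 with all its probe sets averaged. Both lay wholly below their controls, as did Maff at -0.55 and Pax4 at -0.40, but these genes were picked by smallest p. In the whole list of 17, 8 lay wholly below and 2 wholly above, where 32.6% and 15.2% of all tested genes did. Maff was at -0.35 without siNF45 replicate 2, and Pax4 at -0.24 without siNTC replicate 2. The count of 4 became 2 without siNF45 replicate 2, without siNTC replicate 1 and without siNTC replicate 2, and centring left 1 lower and 2 higher.

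Of the other islet transcription factors, 24 of 37 passed the filter, and Neurog3, the factor that starts endocrine development, was among the 13 below it, at a mean of 1.46. No gene was called, with 0 higher and 4 lower at an unadjusted limma p under 0.05, against the same 4.02% and 13.2% of all tested genes, and a median difference of -0.12. Nr4a1, an immediate-early nuclear receptor, read 5.39 and 4.48 in siNF45, against 7.06 and 7.03 in siNTC. The difference was -2.11 (limma adjusted p = 0.0791), and the adjusted p ran from 0.0106 to 0.471 over the alternatives, 4 of which called it. Mnx1, a homeodomain factor of early pancreas and beta cell development, read 1.87 and 2.03 in siNF45, against 2.81 and 2.57 in siNTC, a difference of -0.74 (limma adjusted p = 0.123). The alpha cell factors Irx1 and Irx2 differed by -0.55 and -0.39 (limma adjusted p = 0.148 and 0.289), and Irx2 was at -0.22 without siNTC replicate 2. Irx1, at 1.50 and 1.28 in siNF45 and 1.92 and 1.96 in siNTC, passed the filter only through its siNTC arrays, so its difference and its place among the 4 carry no weight. The count of 4 became 2 without siNTC replicate 2, and 1 with the signal filter at the 70th percentile, which Mnx1, Irx1 and Irx2 did not pass.

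Cofactors and partners of the 9 were nearly all measured, 31 of 33. None was called by limma, 5 were lower and 0 higher with an unadjusted p under 0.05, a share near the 13.2% of all tested genes that were lower, and the median was -0.05. Setd7, a histone methyltransferase that Pdx1 recruits to the insulin gene, read 3.02 and 2.97 in siNF45, against 3.69 and 3.51 in siNTC, a difference of -0.61 (limma adjusted p = 0.131). The Groucho corepressor Tle1 differed by -0.50 (-0.19 with all its probe sets averaged), the E protein Tcf12, of the class that pairs with Neurod1, by -0.44, and Ssbp4, a relative of a component of the Ldb1 complex, by -0.42 (-0.26 without siNF45 replicate 1), with limma adjusted p from 0.155 to 0.256. These 4 were picked by smallest p, and all lay wholly below their controls on the siNF45 arrays. In the whole list of 31, 11 lay wholly below and 2 wholly above, where 32.6% and 15.2% of all tested genes did. The count of 5 became 3 without siNF45 replicate 1, without siNF45 replicate 2 and without siNTC replicate 1, and 3 after centring, where 1 was higher and 2 lower.

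Known target genes of these factors in beta cells differed in both directions. Of 30 genes 29 passed the filter, Ucn3 being the exception at a mean of 1.16, and none was called by limma. Before adjustment, 6 were higher and 5 lower at p under 0.05, where 4.02% of all tested genes were higher and 13.2% lower, and the median was -0.05. The cation channel gene Trpm5 read 3.59 and 3.77 in siNF45, against 2.88 and 2.69 in siNTC, a difference of 0.90 (limma adjusted p = 0.0849). Nnat, which encodes neuronatin, a membrane protein that aids insulin processing, read 8.89 and 8.96 in siNF45, against 8.26 and 8.15 in siNTC, or 0.72 (limma adjusted p = 0.0942). Sytl4, the insulin granule docking protein granuphilin, differed by 0.55 and the granule protein gene Chgb by -0.77 (limma adjusted p = 0.134 and 0.105). The count of 11 became 6 without siNF45 replicate 1 and 6 without siNTC replicate 1. Ins2 itself, the insulin gene with a probe set of its own here, read 7.92 and 7.97 in siNF45, against 7.94 and 7.60 in siNTC, overlapping groups with the lowest value on siNTC replicate 2.

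Hormones and peptides of other endocrine cells, some of which Nkx2-2, Nkx6-1 and Pax6 restrain or activate in the mouse islet, had 7 of 10 genes above the filter and no call. Before adjustment, limma gave p under 0.05 for 1 higher gene, Sct, and 2 lower ones, Gast and Sst, where 17.2% of all tested genes reached that level. Gast, which encodes gastrin, read 5.61 and 5.48 in siNF45, against 6.46 and 6.29 in siNTC, a difference of -0.83 (limma adjusted p = 0.0866). The secretin gene Sct differed by 0.96 and Sst by -0.89 (limma adjusted p = 0.0718 and 0.103), while Ppy, at 0.52, had an adjusted p of 0.307 in limma and was at 0.26 without siNF45 replicate 1 and 0.34 without siNTC replicate 1. Over the 13 alternatives the adjusted p of Sct ran from 0.00635 to 0.471, with 4 calls, that of Gast from 0.0213 to 0.471 and that of Sst from 0.0240 to 0.471, with 1 call each. In bulk samples, fewer cells of a type and less RNA per cell cannot be told apart.

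Of 19 genes that mature beta cells hold low, often called disallowed genes, 12 passed the filter. The 7 others had mean levels from 1.01 to 1.45 and were not tested. Of the 12, 10 were below 0, where 61.7% of all tested genes were, and the median was -0.31. Some of the 12 lay near the filter of 1.65, with siNF45 means of 1.67 (Slc16a1), 1.68 (Rest), 1.79 (Cxcl12) and 2.00 (Ldhb). Rest differed by 0.03, and Slc16a1, Cxcl12 and Ldhb were below 0. None was called by limma, while 1 was higher and 4 were lower with an unadjusted p under 0.05, where 4.02% and 13.2% of all tested genes were. Hexokinase Hk1 read 3.46 on both siNF45 arrays, against 4.26 and 4.13 in siNTC, a difference of -0.74 (limma adjusted p = 0.0935). The lactate transporter gene Slc16a3 differed by -0.92, the thioesterase gene Acot7 by -0.39 and Cd81, a tetraspanin gene reported on immature beta cells, by 0.37, with limma adjusted p from 0.132 to 0.223. The count of 5 became 2 without siNF45 replicate 1, 3 without siNF45 replicate 2, 2 without siNTC replicate 1 and 2 without siNTC replicate 2. The median was -0.26 after quantile normalization and -0.18 after centring.

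**Figure D5:**
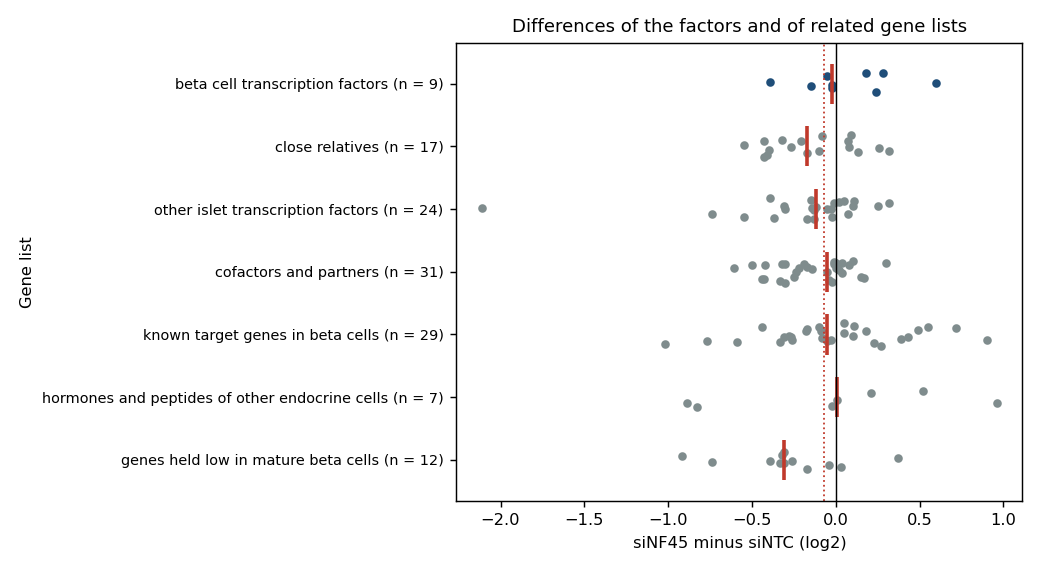
Difference of each tested gene (siNF45 minus siNTC, log2) in the 9 factors (blue) and in 6 related lists (grey), 1 point per gene, with a red bar at the median of each list, a dotted line at the median of all tested genes and a solid line at 0. The factors run from -0.39 to 0.60, and the lowest point is Nr4a1 at -2.11.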

How the data were processed

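Total RNA of 4 samples was hybridised, 1 array each. The deposited log2 expression values, 1 per probe set and array, were made by the authors with Transcriptome Analysis Console, per the submitters' processing notes. Not given in the sources used here are the log base, the software version, the algorithm and any background correction. Values ran from 0.12 to 12.21 and were taken as log2, on which all folds rest. No detection call was used, and the number of arrays limits the precision.

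Of 41345 probe sets, 23521 carried 1 gene symbol, 1814 several and 16010 none in the platform annotation. Gene numbers of 23328 were found in a RefSeq table (GRCm38.p6) and 0 symbols changed. Probe sets with 1 symbol and a mean of 1.65 (the median probe set) or more were kept, the brightest per gene, which left 11742 genes. The test was limma 3.58.1 under R 4.3.3 (lmFit, eBayes, no covariate), with Benjamini-Hochberg adjustment over all tested genes and a threshold of 0.05. Intervals are at 95% and unadjusted. The fit had 2 residual and 3.69 prior degrees of freedom, and was tested on simulated data. An exact permutation test of 2 arrays against 2 cannot go below p = 0.333. No batch, slide or date was used here.

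The members, the gene lists, the rule for named genes (all members, Ilf2, at most 4 genes of each list by smallest p, and the 3 genes nearest in pattern to the member with the smallest p) and the tests were chosen with earlier results of these data known. Ins2, Gcg, Kcnj11, Pcsk1, Hhex, Neurog3, Ucn3, Slc16a1, Rest, Cxcl12 and Ldhb were named after their values were seen. Krt7, Cd68, Col1a2, Vim, Snap25, Stmn2 and Rbfox3 were named because they passed the filter. Some listed genes are not reported here. Alternatives were other filters, quantile normalization, centring, trend or robust eBayes, the replicate block, averaged probe sets, each array left out, an unmoderated test and a threshold of 0.10.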

Additional observations from a re-analysis of the deposited data

How the results depend on the processing

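No member was called under any alternative run. Genes called over the whole array numbered 10 as deposited (1 higher, 9 lower), 87 with the filter at the 70th percentile (17, 70), 62 after quantile normalization (18, 44), 172 after centring (71, 101), 174 with a trend in eBayes (40, 134), 190 at an adjusted p under 0.10 (30, 160) and 0 in an unmoderated limma fit, which left out genes with no residual spread and had 1356 genes at an unadjusted p under 0.05. Leaving out each array gave 0 to 0 genes, with 1236 to 1670 at an unadjusted p under 0.05, under the assumption that a lone array varies as the other group does. Members at an unadjusted p under 0.05 numbered 2 as deposited, 1 after quantile normalization, 3 after centring (3 higher, 0 lower), 4 with a trend (3 higher, 1 lower), 0 unmoderated, and 0 to 2 with each array left out. The replicate numbers occur in both groups, and deviations of same-numbered arrays correlated at 0.00615 over genes, so they were not taken to pair the samples. The fit with the replicate block called 0 genes, with 1909 at an unadjusted p under 0.05 and 1 member, Rfx6, among them. Small differences changed sign with scaling. After centring Pdx1 was at 0.09, Mafa at 0.12 and Nkx6-1 at 0.12, and after quantile normalization Mafa was at 0.05 and Nkx6-1 at 0.03. With each array left out, Mafa ran from -0.05 to 0.02, Nkx6-1 from -0.08 to 0.05, Nkx2-2 from -0.03 to 0.38 and Neurod1 from -0.38 to 0.08, and the cause was not tested. The median of the members was -0.02 as deposited, 0.05 after quantile normalization and 0.12 after centring, where all tested genes had -0.07, -0.02 and 0.07. Ilf2 and the genes named by smallest p in each list were 25 genes, and 320 of their 320 values under alternatives kept their direction. The listed genes, Irx1 among them, were picked by p in the same arrays that the alternatives refit. Their kept direction is therefore no support for them. Besides Ilf2, 7 of the 25 were called under at least 1 alternative (Nr4a1, Sct, Nnat, Trpm5, Chgb, Gast and Sst). Neurod1 did not reach the 70th percentile filter, and no member had a second probe set of its own to compare.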
